A study of Sus scrofa with 9 samples.

Results

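Genes of fatty acid uptake, storage and oxidation were followed across 9 porcine hearts in 3 groups of 3. A list of 45 genes was written by symbol, and 35 of them were listed among the 25149 genes of the table, of which 12006 carried no symbol. The 10 members not listed under their symbol were *CD36*, *FABP3*, *FABP4*, *LPL*, *ACSL5*, *ACSL6*, *MLYCD*, *PLIN2*, *ECI1* and *ECHS1*, and they were left out. Of the 35, 30 reached 1 TPM (a read-based level corrected for gene length, in which the genes of each heart sum to 1000000) in at least 3 hearts and were tested, as were 11782 genes in all. All hearts came from female Yorkshire pigs aged 4 to 6 months in a model of donation after circulatory death (DCD) with 15 min of warm ischemia without circulation. Group 1 (NRP + HOPE 24 h, pigs 27, 28 and 30) had 60 min of normothermic regional perfusion (NRP, warm blood circulated inside the donor) and then hypothermic oxygenated perfusion (HOPE) for 24 h at 8 °C. Group 2 (NRP + SCS 2 h, pigs 24, 25 and 29) had the same 60 min of NRP and then static cold storage (SCS) for 2 h at 4 °C. Group 3 (No NRP + HOPE 2 h, pigs 31, 33 and 34) was procured without NRP and received HOPE for 2 h at 8 °C. All hearts were then perfused with warm blood on a bench-top circuit for 2 h (normothermic machine perfusion, NMP), and apex tissue was frozen for poly(A) RNA sequencing, so that the values describe tissue after warm reperfusion. The circuit blood carried added dextrose where needed and the HOPE perfusate carried insulin and donor red cells. Values in each heart are given below in the order of the pigs above.

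The adult heart is known to take most of its energy from long-chain fatty acids. Lipoprotein lipase frees them from circulating triglyceride, transporters carry them into the cardiomyocyte, and acyl-CoA synthetases (ACSL) activate them, after which they are either stored in lipid droplets or passed into mitochondria by the carnitine shuttle. Inside the mitochondrion, beta-oxidation repeats a dehydrogenation, a hydration, a further dehydrogenation and a thiolysis, and the electrons of the acyl-CoA dehydrogenases reach the respiratory chain through the electron transfer flavoprotein. Malonyl-CoA restrains entry, pyruvate dehydrogenase kinase 4 (PDK4) restrains the competing use of glucose, and nuclear receptors of the PPAR family drive transcription of many of these genes.

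The tissue was labelled as cardiomyocytes, but the samples were pieces of whole myocardium. The 6 cardiomyocyte markers listed, of 12 written, summed to 22647 to 43212 TPM over the 9 hearts. The 5 adipocyte markers listed, of 8 written, summed to 3.15 to 11.1 TPM, with *PLIN1* near 0, and the endothelial, fibroblast and smooth muscle markers summed to 333 to 750, 669 to 1150 and 233 to 503 TPM. The 13 mitochondrially encoded protein genes took 38.2% to 55.3% of all TPM, with the lowest share in pig 30. Sequencing depth cannot be read from TPM, and precision is therefore shown by the spread between hearts. In tissue, fewer cells of a type and less RNA per cell cannot be told apart.

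The level of the members tested ranged over more than 2 orders of magnitude. Of the 30, 11 had a mean over 50 TPM, a level that 11% of all genes tested reached, 12 lay between 10 and 50 TPM and 7 were under 10 TPM. The highest mean belonged to *PDK4*, at 259.9 TPM. *HADHA*, the alpha subunit of the mitochondrial trifunctional protein that carries out the later steps of long-chain beta-oxidation, had a mean of 189 TPM, and its partner *HADHB* had 123 TPM. *ANGPTL4*, a secreted inhibitor of lipoprotein lipase, had 141 TPM. *ETFB*, a subunit of the electron transfer flavoprotein, had 139 TPM. At the low end, *PLIN5*, which coats lipid droplets in oxidative tissue, had a mean of 2.00 TPM and *LIPE*, the hormone-sensitive lipase, 3.78 TPM.

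**Figure D1:**
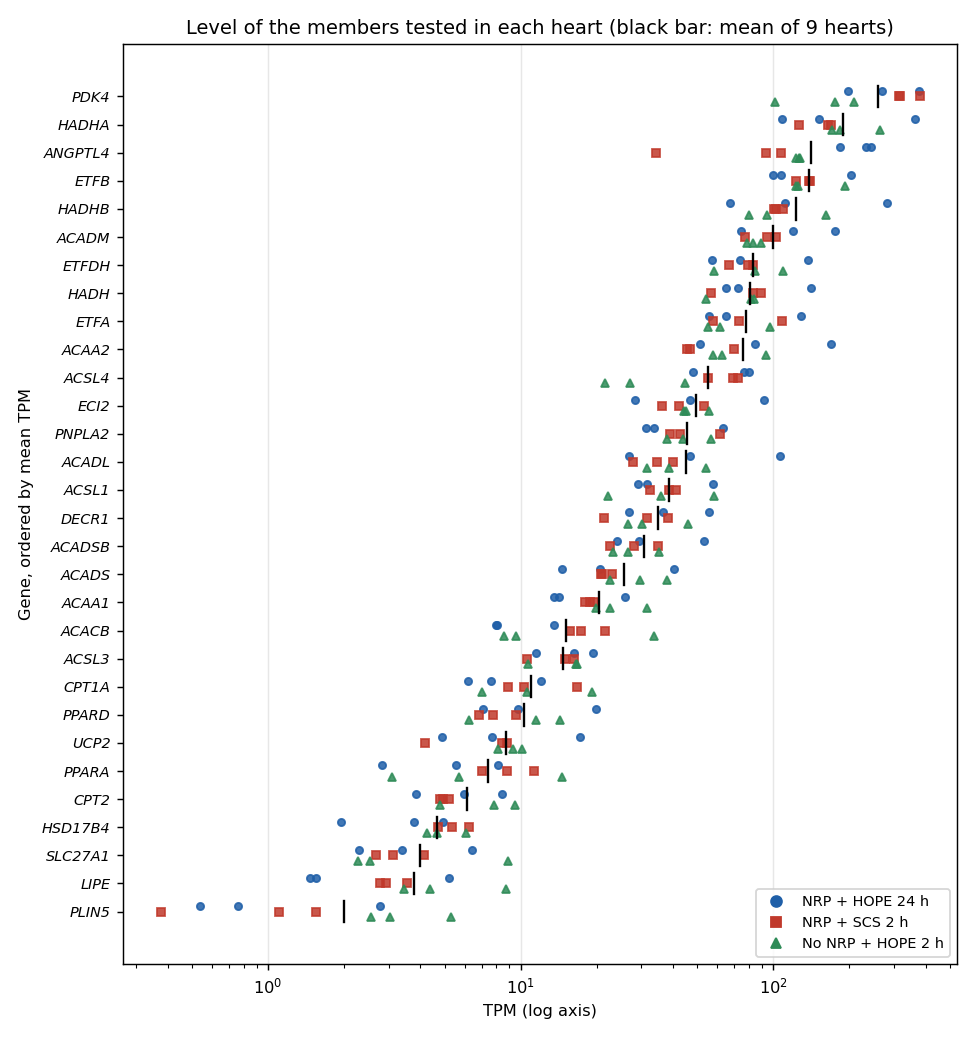
Level of each of the 30 members tested in each heart, in TPM on a log axis, ordered by the mean of the 9 hearts (black bar). Circles are NRP + HOPE 24 h, squares NRP + SCS 2 h and triangles No NRP + HOPE 2 h. Means run from 2.00 TPM for *PLIN5* to 259.9 TPM for *PDK4*, and the groups overlap for most members.

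Of the members listed, 5 did not reach the level required for a test. *CPT1B*, the muscle form of the outer carnitine palmitoyltransferase, and *PPARGC1A*, a coactivator of PPAR receptors, were listed at 0 in all 9 hearts, and since cardiac muscle is known to use both, nothing is read from those zeros. *ACADVL* (0 to 0.16 TPM), the very long-chain acyl-CoA dehydrogenase, *UCP3* (0 to 1.08 TPM), a mitochondrial uncoupling protein, and *SLC27A6* (0.21 to 0.89 TPM), a fatty acid transport protein, were the others. Nothing is read from these low values either. An entry with the identifier of *ACSL6* carried no symbol and ranged from 0 to 0.547 TPM. The carnitine step was therefore represented by *CPT1A*, the form best known from liver, which ranged from 6.20 to 19.1 TPM, and by *CPT2*, the inner membrane enzyme, which ranged from 3.85 to 9.50 TPM.

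The spread between single hearts was wide for most of the oxidation genes. The members' mean log2 deviation from each gene's own mean was 0.68 in pig 30 and 0.44 in pig 34, and it lay between −0.39 (pig 27) and 0.10 (pig 25) in the other 7 hearts. Pig 30 had the highest TPM of the 9 hearts for 19 of the 30 members, among them all 7 acyl-CoA dehydrogenase and electron transfer genes, and pig 34 for 9, among them all 3 carnitine and malonyl-CoA genes. *HADHB* stood at 67.5, 111 and 281 TPM in the NRP + HOPE 24 h hearts, at 100.1, 109 and 103 TPM in the NRP + SCS 2 h hearts, and at 94.6, 80.05 and 162 TPM in the No NRP + HOPE 2 h hearts. With TPM as deposited, pigs 30 and 34 were thus above every other heart for *HADHB*, while pig 27 was the lowest. *HADHA* stood at 108, 151 and 363 TPM in the NRP + HOPE 24 h hearts, with the same 2 hearts on top, pig 30 and pig 34 (264 TPM), against 108 to 184 TPM in the rest. Pig 30 also had the lowest mitochondrially encoded share. Over all genes tested, the mean deviation was 0.33 in pig 30, 0.20 in pig 34 and −0.35 in pig 27. After median-of-ratios scaling, which sets the typical gene level in each heart, the members' deviation was 0.29 in pig 30 and 0.22 in pig 34, and each of these hearts was highest for 10 members. Pig 27 then stood at 0.03 and was lowest for 1 member, instead of 10 with TPM as deposited.

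**Figure D2:**
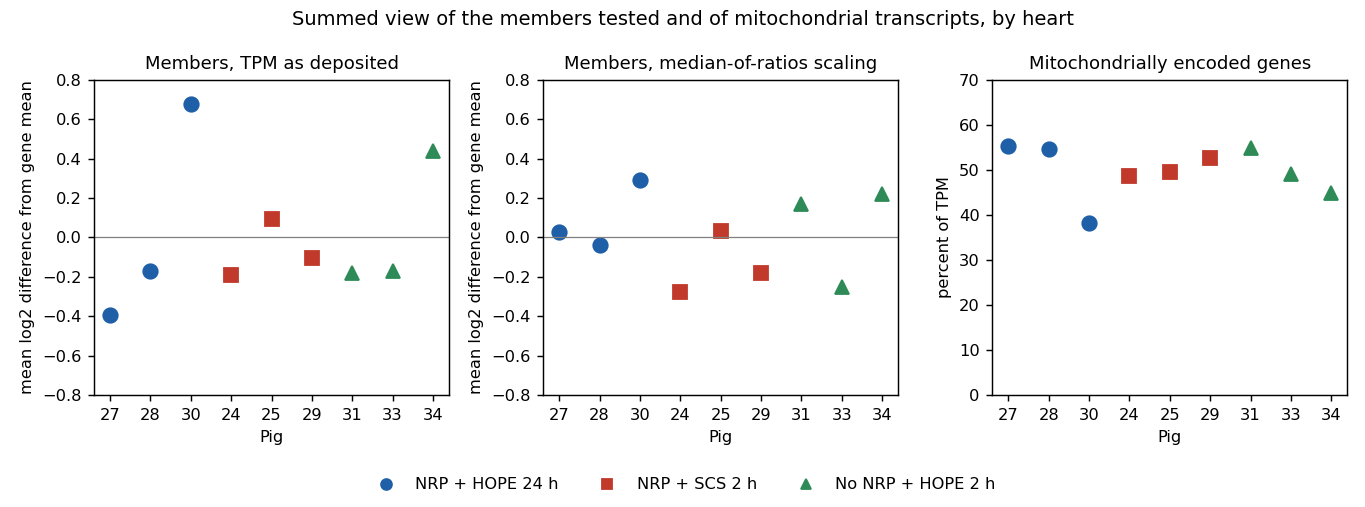
One point per heart, with symbols for the 3 groups. Left and middle, the mean over the 30 members of log2(TPM + 1) minus the gene's own mean, with TPM as deposited and after median-of-ratios scaling. Right, the percent of TPM from 13 mitochondrially encoded genes. Pig 30 has the highest member level (0.68, or 0.29 after scaling) and the lowest mitochondrial share (38.2%).

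**Figure D3:**
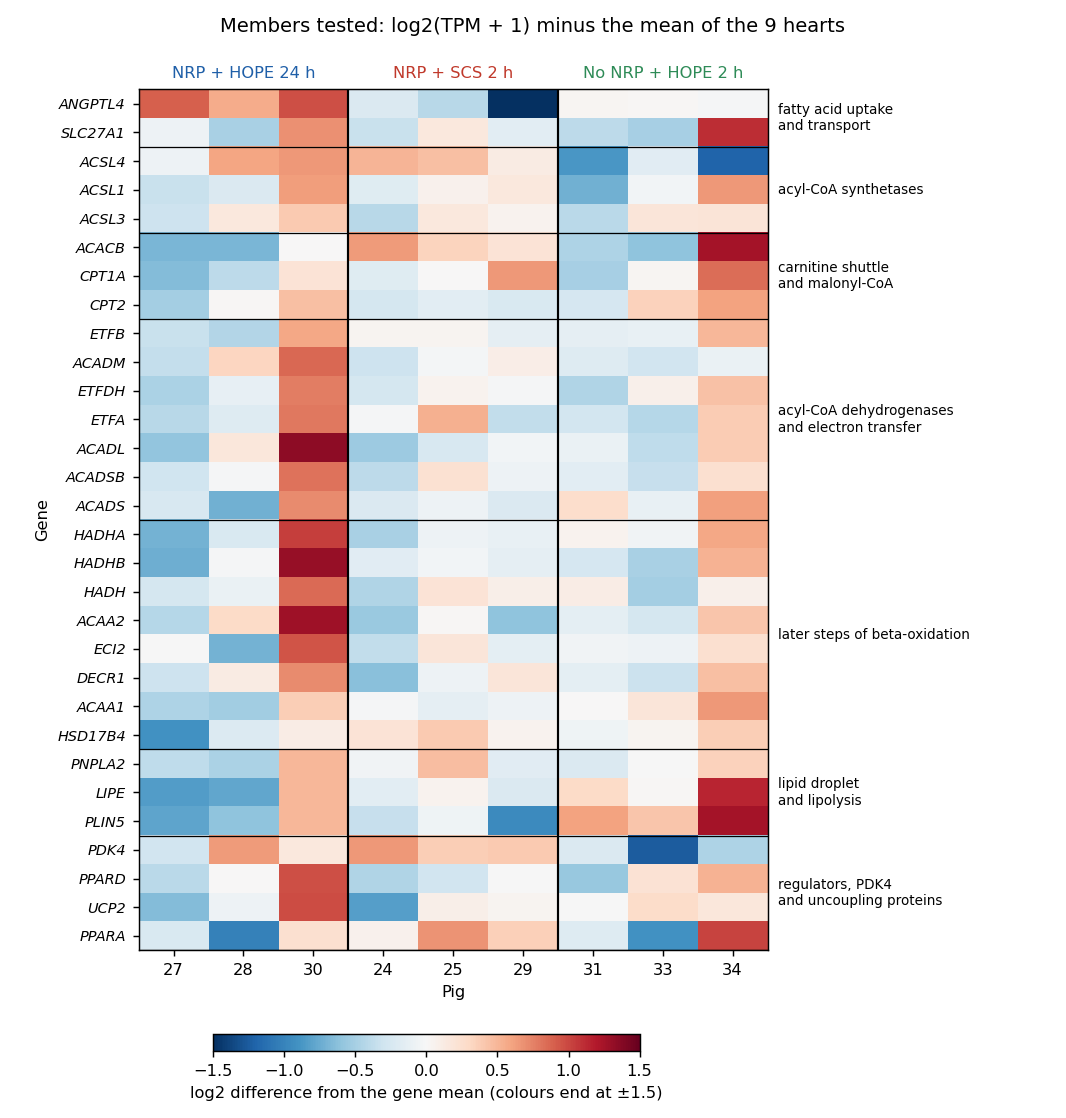
Each row is a member tested, grouped by role, and each column a heart, and the colour is log2(TPM + 1) minus the mean of the 9 hearts, with colours ending at ±1.5. The column of pig 30 is red for most beta-oxidation genes, the row of *ACSL4* is blue in the 3 hearts without NRP, and that of *ANGPTL4* is blue in the 3 SCS hearts.

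To compare extended HOPE with short static storage after NRP, Group 1 was set against Group 2. *ANGPTL4* was the member with the largest difference. It stood at 232, 184 and 244 TPM in the NRP + HOPE 24 h hearts, at 107, 93.2 and 34.3 TPM in the NRP + SCS 2 h hearts, and at 127, 126 and 123 TPM in the No NRP + HOPE 2 h hearts. The 3 groups did not overlap, with the 24 h hearts highest and the SCS hearts lowest. The means of 220.0 ± 31.7 and 78.1 ± 38.6 TPM (SD, n = 3) in Groups 1 and 2 differed by 1.63 ± 0.36 (SE) on the log2(TPM + 1) scale, with an unadjusted p of 0.000525 in limma's moderated test and an adjusted p of 0.208 over all 11782 genes. The difference kept its sign and an unadjusted p under 0.05 in all 19 alternatives tried, and lay between 1.12 (without pig 29) and 1.93. For this and every other single gene, an exact permutation test of 3 hearts against 3 cannot give a p below 0.1, which is the value it gave here.

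*ANGPTL4* was also the single member of the 30 with an unadjusted p under 0.05 in this comparison, against 4.97% of all genes tested (1.82% higher and 3.14% lower). None had an adjusted p under 0.05, as against 0.0255% of all genes. One member was higher without overlap between the groups and 1, *ACACB*, lower, against 9.82% of all genes without overlap (2.5% higher and 7.32% lower). *ACACB* encodes the mitochondrial acetyl-CoA carboxylase that makes malonyl-CoA, the inhibitor of the carnitine step. It stood at 8.01, 8.05 and 13.6 TPM with NRP + HOPE 24 h, at 21.5, 17.3 and 15.7 TPM with NRP + SCS 2 h, and at 9.54, 8.58 and 33.6 TPM without NRP. The 24 h hearts were all below the SCS hearts, by −0.84 ± 0.44 (limma log2 fold change ± SE, unadjusted p = 0.0749, adjusted p = 0.993), and the hearts without NRP spanned both. *CPT1A*, the enzyme that malonyl-CoA inhibits, differed by −0.43 ± 0.39, within the spread between hearts.

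Among the oxidation enzymes, the higher means in Group 1 came mostly from pig 30 with TPM as deposited. Leaving out pig 30 also moved the median difference over all genes tested from −0.12 to −0.31. *ACAA2*, the mitochondrial thiolase, stood at 51.2, 84.8 and 168 TPM in Group 1, at 46.9, 69.9 and 45.4 TPM in Group 2 and at 62.4, 57.6 and 93.1 TPM in Group 3. Pig 27 lay inside the range of the SCS hearts and pig 30 far above it, and the difference between Groups 1 and 2 was 0.76 ± 0.39 (unadjusted p = 0.0716), or 0.31 without pig 30. *ACADL*, a long-chain acyl-CoA dehydrogenase, stood at 26.9, 46.6 and 106.0 TPM in Group 1, at 27.9, 34.6 and 39.9 TPM in Group 2 and at 38.4, 31.5 and 54.0 TPM in Group 3. The lowest of the 9 hearts and the highest were both in Group 1, and the difference of 0.58 ± 0.41 was 0.07 without pig 30. *HSD17B4*, which carries out the middle steps in peroxisomes, was among those with a lower mean in Group 1, at 1.94, 3.77 and 4.94 TPM against 5.33, 6.23 and 4.69 TPM with SCS and 4.27, 4.68 and 6.10 TPM without NRP. Its difference of −0.55 ± 0.33 came with overlapping hearts and an unadjusted p of 0.12. It was −0.26 without pig 27, where the median over all genes was 0.04 instead of −0.12. The unadjusted limma p of *HSD17B4* was under 0.05 with array weights, without mitochondrially encoded genes and without pig 30. In those settings 15.4%, 8.16% and 10.7% of all genes were under 0.05.

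*PPARA*, the nuclear receptor best known for driving fatty acid oxidation, stood at 5.55, 2.81 and 8.12 TPM in Group 1, at 7.02, 11.3 and 8.86 TPM in Group 2, and at 5.71, 3.09 and 14.5 TPM in Group 3. Groups 1 and 2 overlapped, and the difference was −0.70 ± 0.46 (limma, unadjusted p = 0.153), or −0.36 without pig 28. With array weights its unadjusted p was under 0.05, as for 15.4% of all genes. *PPARD*, the related receptor, differed by 0.44 ± 0.39 and *PDK4* by −0.30 ± 0.31, both within the spread between hearts. The synthetases *ACSL1*, *ACSL3* and *ACSL4* differed by 0.02 to 0.15. In all, 21 members had a positive and 9 a negative difference, with a median of 0.15 against −0.12 over all genes tested, of which 35.9% were above 0. Without pig 30, 6 of the 30 were positive and the median was −0.24 against −0.31 over all genes. With array weights 13 were positive and the median was −0.052 against −0.19 over all genes, and without pig 27 4 members had an unadjusted p under 0.05, against 5.53% of all genes. After median-of-ratios scaling, which moved the median of all genes from −0.12 to 0.00, 5 members had an unadjusted p under 0.05, all higher in Group 1 (*ANGPTL4*, *ACAA2*, *ACADL*, *ACADM* and *PPARD*), against 8.59% of all genes under that scaling. The method, length and temperature of storage differed together between these groups and cannot be told apart. The hearts of the groups overlapped for the summed level of every cell type marker list examined. Of the single markers, *TEK* (endothelial) was lower in Group 1 without overlap, at 3.41 to 7.05 against 7.55 to 11.2 TPM. So was *MRC1* (macrophage), at 3.78 to 6.15 against 6.79 to 8.08 TPM. The part of these markers in the members' values was not tested.

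**Figure D4:**
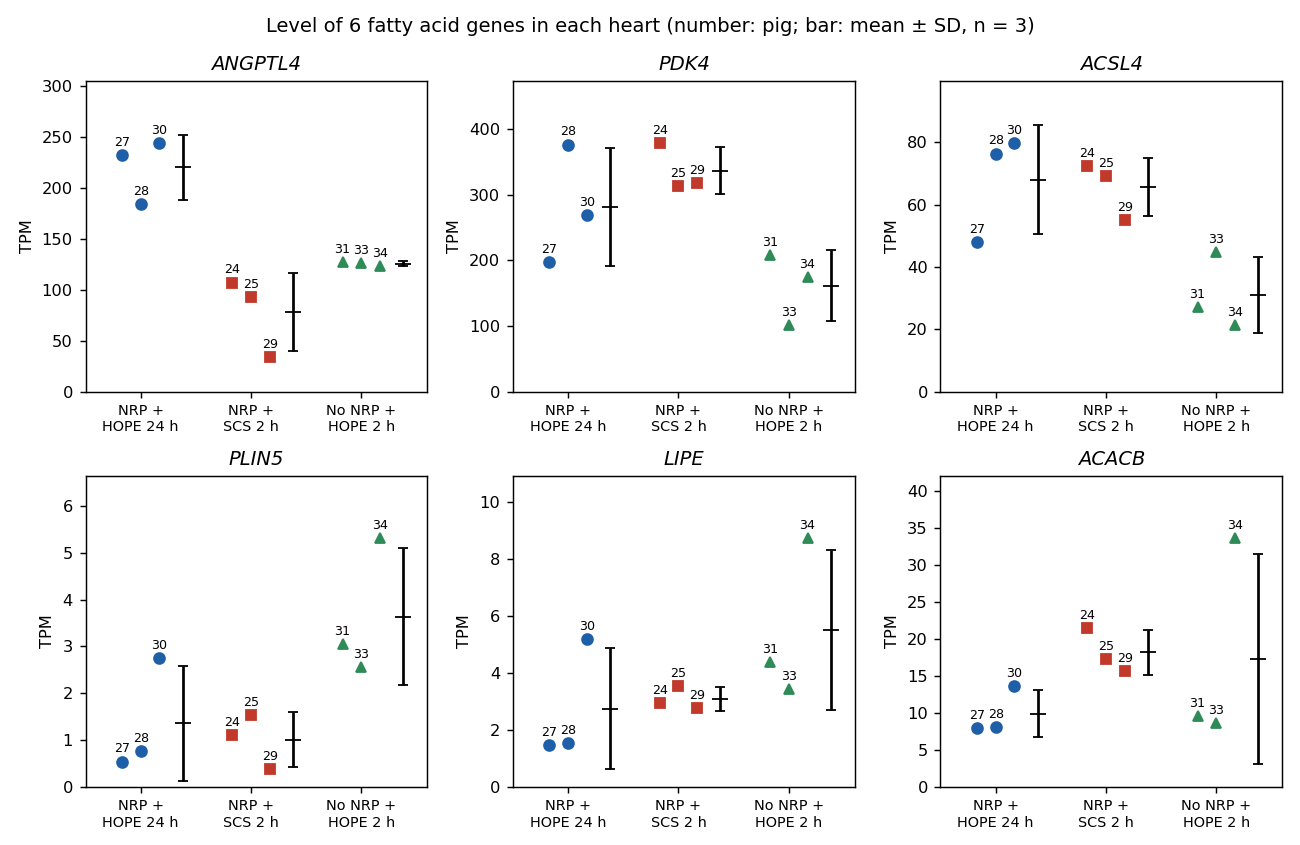
TPM of *ANGPTL4*, *PDK4*, *ACSL4*, *PLIN5*, *LIPE* and *ACACB* in each heart (numbers are pigs), with the mean ± SD of each group (n = 3). The 3 groups do not overlap for *ANGPTL4*, and the 3 hearts without NRP are below all other 6 for *ACSL4*.

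The contribution of NRP was addressed by setting Group 3 against Group 2. Of the 30 members 4 had an unadjusted p under 0.05 with limma, *PDK4* and *ACSL4* lower and *ANGPTL4* and *PLIN5* higher without NRP, against 7.22% of all genes tested (2.57% higher and 4.65% lower). None had an adjusted p under 0.05, as against 0.0509% of all genes. The hearts did not overlap for 4 members that were higher and 2 that were lower without NRP, against 14.7% of all genes (4.44% higher and 10.3% lower).

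*PDK4*, the kinase that shuts down pyruvate dehydrogenase and so spares glucose, stood at 208, 101 and 175 TPM in the hearts without NRP, at 379, 314 and 318 TPM in the NRP + SCS 2 h hearts, and at 198, 377 and 269.5 TPM in the NRP + HOPE 24 h hearts. All hearts without NRP were below all SCS hearts. The means of 161 ± 54.6 and 337 ± 36.3 TPM (SD, n = 3) differed by −1.11 ± 0.31 on the log2 scale (unadjusted p = 0.00313, adjusted p = 0.392). The unadjusted p stayed under 0.05 in all 19 alternatives, where the difference ranged from −0.81 to −1.43. With hearts weighted by their quality in limma, the adjusted p was 0.0245, a setting under which 96 instead of 6 of all genes were under 0.05, and over the 19 alternatives it ran up to 0.999.

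*ACSL4*, a synthetase that prefers arachidonic acid and other polyunsaturated fatty acids, stood at 27.0, 44.9 and 21.5 TPM without NRP, at 72.4, 69.4 and 54.9 TPM with NRP + SCS 2 h and at 48.0, 76.4 and 79.8 TPM with NRP + HOPE 24 h. The 3 hearts without NRP were below all other 6. The difference from Group 2 was −1.11 ± 0.32 (unadjusted p = 0.00412, adjusted p = 0.414), with an unadjusted p under 0.05 in all 19 alternatives. *ACSL1*, the main synthetase of heart muscle, and *ACSL3* differed by −0.05 ± 0.37 and 0.06 ± 0.31. The share of *ACSL4* in the summed TPM of these synthetases was 45.2%, 46.1% and 22.3% without NRP and 49.4% to 62.8% in the other 6 hearts. This measure was chosen after the values were seen, and a single scaling factor per heart cannot move it.

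*PLIN5* was at low levels throughout, with 3.04, 2.56 and 5.31 TPM without NRP, 1.10, 1.54 and 0.38 TPM with NRP + SCS 2 h, and 0.54, 0.76 and 2.76 TPM with NRP + HOPE 24 h. The hearts without NRP were above all SCS hearts and overlapped with pig 30. The difference was 1.21 ± 0.41 (unadjusted p = 0.0112, adjusted p = 0.516), on a scale that understates the change of such low genes. The other lipolysis genes differed less, with 0.59 ± 0.41 for *LIPE* (0.26 without pig 34) and −0.04 ± 0.32 for *PNPLA2*, the adipose triglyceride lipase that opens triglyceride breakdown. *LIPE* stood at 4.37, 3.44 and 8.74 TPM without NRP, at 2.93, 3.55 and 2.77 TPM with NRP + SCS 2 h and at 1.46, 1.55 and 5.19 TPM with NRP + HOPE 24 h, so that pig 33 lay among the SCS hearts. The adipocyte markers summed to 4.69 to 11.1 TPM in Group 3 and 4.98 to 9.89 TPM in Group 2, with overlap.

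*ANGPTL4* was higher without NRP by 0.83 ± 0.36 (unadjusted p = 0.0373, adjusted p = 0.663), with no overlap and the SCS hearts below all other 6. That difference was 0.33 without pig 29, whose 34.3 TPM was the lowest value, and the unadjusted p was also over 0.05 without pig 31, 33 or 34, staying under it in 12 of 19 alternatives. Without pig 29, 2 members instead of 4 had an unadjusted p under 0.05, *PDK4* and *ACSL4*, against 6.76% of all genes. *HADHA* and *ACAA1*, a peroxisomal thiolase, were the other members higher without NRP with no overlap, by 0.41 ± 0.38 and 0.35 ± 0.31, or 0.22 and 0.17 without pig 34. Leaving out pig 34 also moved the median over all genes from −0.07 to −0.18. *HADHA* stood at 184, 170.1 and 264 TPM against 126, 168 and 164 TPM with SCS, so that pig 33 exceeded pig 25 by a small margin. *ETFB* stood at 123, 125 and 192 TPM without NRP, at 139, 140 and 123 TPM with NRP + SCS 2 h and at 107, 99.6 and 202 TPM with NRP + HOPE 24 h, a difference of 0.10 ± 0.31 between Groups 3 and 2. The nuclear receptors *PPARA* (−0.40 ± 0.46) and *PPARD* (0.31 ± 0.39) differed within the spread between hearts.

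The median difference of the 30 members was 0.10, with 18 positive, against −0.07 and 42.2% positive over all genes tested. Without pig 34 the median was −0.11 with 12 positive, against −0.18 over all genes, and with array weights it was −0.0015 with 15 positive, against −0.022 over all genes. After median-of-ratios scaling 23 members were positive and 6 had an unadjusted p under 0.05, 4 higher (with *ACAA1* and *CPT2* added) and 2 lower, against 12.4% of all genes under that scaling. Sums of markers of other cells also differed between these groups without overlap. The erythroid markers summed to 222 to 373 TPM in Group 3 and 71.4 to 133 TPM in Group 2, the fibroblast markers to 1020 to 1150 and 669 to 982 TPM, and the neutrophil markers to 0 to 0.34 and 2.02 to 13.2 TPM, with *MPO* and *CSF3R* at 0 in all hearts. Of the fibroblast markers, *COL3A1* and *DCN* did not overlap, while *COL1A2* and *LUM* did. *PDGFRA* overlapped and had the lower mean in Group 3 (2.82 against 3.95 TPM). The part of these markers in the members' values was not tested. NRP, the storage method and the storage temperature differed together between these groups and cannot be told apart.

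**Figure D5:**
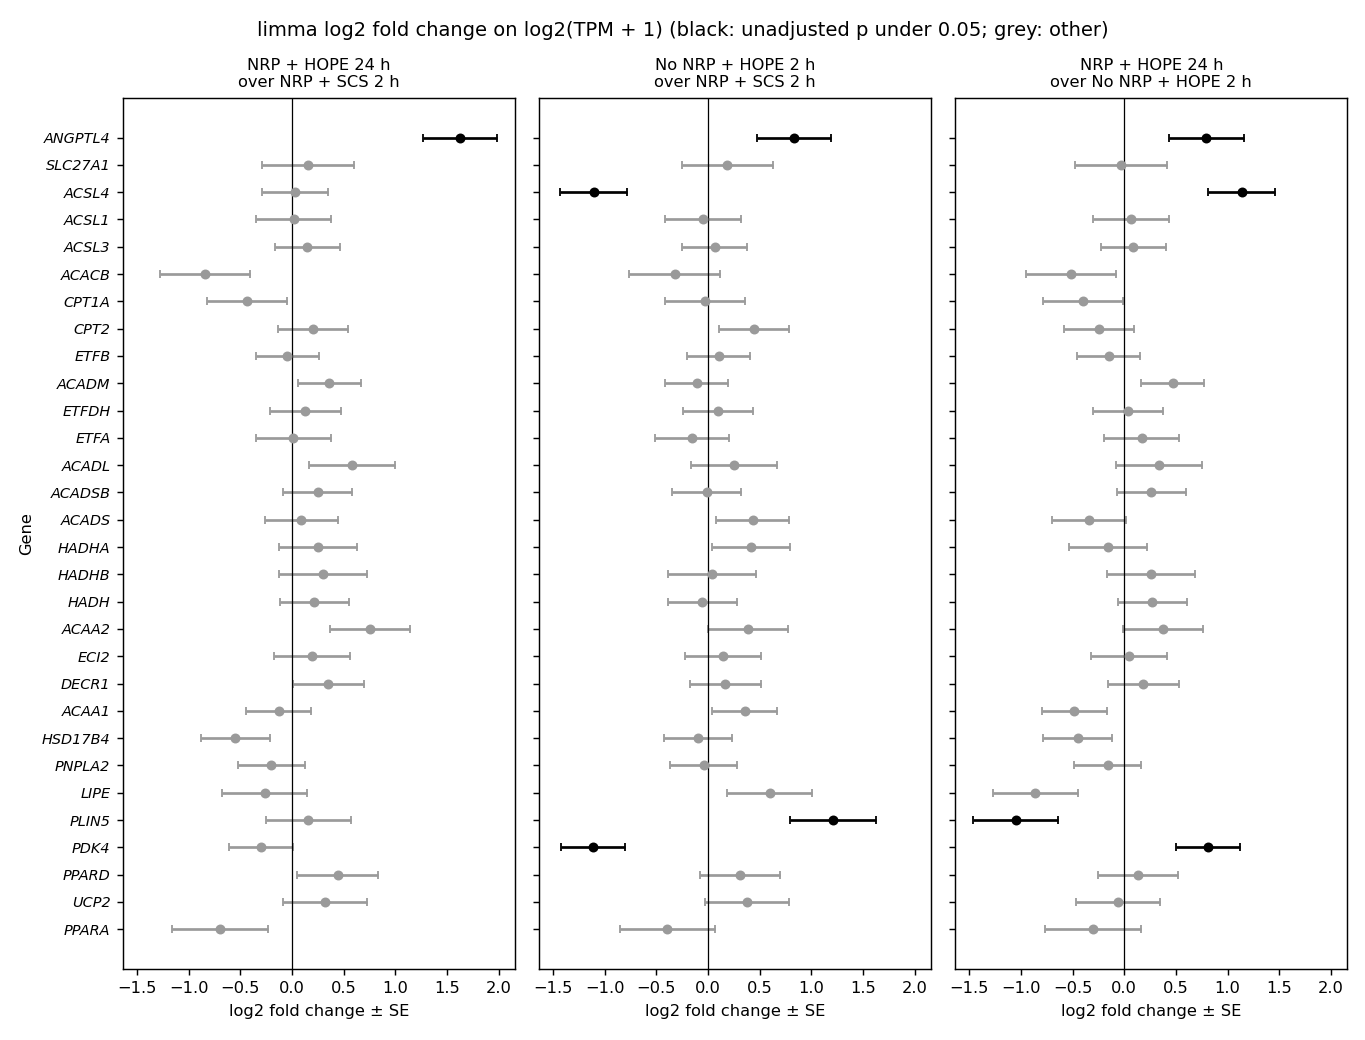
limma log2 fold change ± SE of each member tested on log2(TPM + 1) in the 3 comparisons, with members in the same order in each panel. Black marks an unadjusted p under 0.05, reached by 1, 4 and 4 members from left to right, and none reached an adjusted p under 0.05.

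Group 1 was finally set against Group 3. Both were kept in HOPE at 8 °C, and they differed in NRP and in the length of storage, which cannot be told apart. This comparison shares its hearts with the others and gives no independent support to them. Of the 30 members 4 had an unadjusted p under 0.05 with limma, 3 higher and 1 lower in the 24 h hearts, against 6.01% of all genes tested (2.78% higher and 3.23% lower). None had an adjusted p under 0.05, as against 0.0509% of all genes. *ACSL4* was higher in the 24 h hearts by 1.14 ± 0.32 (unadjusted p = 0.00348, adjusted p = 0.402), with means of 68.1 ± 17.5 and 31.1 ± 12.2 TPM (SD, n = 3). *ANGPTL4* was higher by 0.79 ± 0.36 (unadjusted p = 0.0455, adjusted p = 0.826), with an unadjusted p under 0.05 in 9 of 19 alternatives. These were the members without overlap, 2 higher and 0 lower, against 7.48% of all genes (2.97% higher and 4.51% lower). *PDK4* was higher by 0.81 ± 0.31 (unadjusted p = 0.0211, adjusted p = 0.739), although pig 27 lay below pig 31, and its unadjusted p was over 0.05 without pig 28 and without pig 33, where the difference was 0.51. *PLIN5* was lower by −1.05 ± 0.41 (unadjusted p = 0.0234, adjusted p = 0.743), with pig 30 above pig 33, and its unadjusted p was over 0.05 without pig 27, without pig 28 and without pig 34.

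The other members had unadjusted p-values over 0.05 in that comparison. *LIPE* was lower in the 24 h hearts by −0.86 ± 0.41 (unadjusted p = 0.056), or −0.53 without pig 34. In *LIPE* pigs 27 and 28 were below the hearts without NRP and pig 30 was inside their range. The carnitine and malonyl-CoA genes differed by −0.25 (*CPT2*) to −0.52 (*ACACB*), with overlapping hearts, and *ACACB* by 0.077 without pig 34. *ACADM*, the medium-chain acyl-CoA dehydrogenase, differed by 0.47 ± 0.31 and *ACAA1* by −0.48 ± 0.31. *ETFB*, *HADHA* and *HADHB* differed by −0.15, −0.16 and 0.26, within the spread between hearts. The median was 0.04 against −0.03 over all genes tested, with 16 members and 46.1% of all genes positive. With array weights it was −0.16, as over all genes, with 11 positive. Without pig 30 the median was −0.34 against −0.23 over all genes, 4 members were positive and 7 had an unadjusted p under 0.05, 2 higher and 5 lower, against 9.49% of all genes. Without pig 28 *ACSL4* and *ANGPTL4* had one and without pig 34 *ACSL4* and *PDK4*, all higher, against 4.12% and 4.93% of all genes. After median-of-ratios scaling 6 members had an unadjusted p under 0.05, 3 higher and 3 lower instead of 3 and 1, against 11.7% of all genes under that scaling. The higher ones were *ACADM*, *ACSL4* and *PDK4*, no longer with *ANGPTL4*, and the lower ones *ACAA1*, *LIPE* and *PLIN5*. The smooth muscle markers summed to 233 to 432 TPM in Group 1 and 448 to 503 TPM in Group 3, without overlap. Of the single genes, *ACTA2* did not overlap, while *TAGLN*, *CNN1*, *PDGFRB* and *KCNJ8* did, and *MYH11* was at 0 in all hearts. *CNN1* had the lower mean in Group 3 (58.5 against 80.5 TPM). The neutrophil markers summed to 0.36 to 3.89 and 0 to 0.34 TPM. These sums were separated by a narrow gap at a very low level, where the closest values came from *S100A9* alone. What part these markers had in the members' values was not tested.

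A wider list of 100 lipid genes that were not members was examined in the same fit, of which 75 were listed and 67 tested. None had an adjusted p under 0.05 with limma in any comparison, and the medians of the 67 differences were −0.08, −0.01 and −0.07 in the order of the comparisons above, against −0.12, −0.07 and −0.03 over all genes tested. Between Groups 1 and 2, 3 of the 67 had an unadjusted p under 0.05, against 4.97% of all genes. *G0S2*, an inhibitor of the adipose triglyceride lipase, was higher in the 24 h hearts by 0.75 ± 0.29, at 7.11, 8.25 and 8.56 TPM against 5.14, 3.36 and 4.65 TPM, without overlap. *ABHD5*, the activator of the same lipase, was lower by −0.71 ± 0.31, at 9.62, 12.5 and 10.6 TPM against 27.0, 16.3 and 14.0 TPM, also without overlap, but by −0.44 without pig 24 (27.0 TPM) and with an unadjusted p under 0.05 in 12 of 19 alternatives. *ACSS1*, a mitochondrial acetyl-CoA synthetase, was lower by −0.85 ± 0.35, with 28.9 to 45.7 TPM against 55.3 to 78.4 TPM. The unadjusted p of *G0S2* was under 0.05 in 17 and that of *ACSS1* in 16 of 19 alternatives.

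Between Groups 3 and 2, 6 of the 67 had an unadjusted p under 0.05, 3 higher and 3 lower without NRP, against 7.22% of all genes. *LPIN1*, a phosphatidate phosphatase of triglyceride synthesis that is also known as a coactivator of *PPARA*, stood at 6.20, 8.50 and 13.6 TPM without NRP, at 54.0, 55.2 and 24.1 TPM with NRP + SCS 2 h and at 18.0, 20.5 and 45.5 TPM with NRP + HOPE 24 h. The hearts without NRP were below all other 6. The difference from Group 2 was −2.09 ± 0.42 (unadjusted p = 0.000241, adjusted p = 0.118), with adjusted p-values from 0.00931 to 0.454 over 19 alternatives and 3 of them under 0.05. *LPIN3*, of the same family, was higher without NRP by 0.83 ± 0.32, at 2.47, 2.97 and 4.16 TPM against 1.82, 1.15 and 1.09 TPM. *PDK2*, the widely expressed pyruvate dehydrogenase kinase, was lower by −0.80 ± 0.33, at 17.7, 21.0 and 19.5 TPM against 38.4, 35.9 and 30.0 TPM, without overlap. The unadjusted p of *LPIN3* was under 0.05 in 15 of 18 and that of *PDK2* in 15 of 19 alternatives.

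Between Groups 1 and 3, 5 of the 67 had an unadjusted p under 0.05, against 6.01% of all genes. *LPIN1* was higher in the 24 h hearts by 1.41 ± 0.42 (unadjusted p = 0.00511, adjusted p = 0.443), and the hearts did not overlap. *FABP5*, a fatty acid binding protein found in endothelium among other cells, was lower by −1.04 ± 0.43, at 81.0, 87.7 and 116 TPM against 128, 228 and 251 TPM. *NRIP1*, a corepressor of nuclear receptors, was higher by 0.83 ± 0.35, at 1.88, 3.03 and 4.14 TPM against 1.02, 1.27 and 1.33 TPM. The unadjusted p was under 0.05 in 14 of 19 alternatives for *FABP5* and in 14 of 18 for *NRIP1*.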

How the data were processed

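RNA from apex biopsies of 9 hearts (1 per pig, 3 per group) was sequenced, and pigs, not technical repeats, are the replicates. Per the labels, the authors used bcl2fastq 2.17, Trimmomatic 0.36, STAR 2.5.2b, featureCounts of Subread 1.5.2 and DESeq2. The authors deposited TPM values, each column summing to 1000000 over 25149 genes. The genome build and the gene lengths behind TPM are not given in the sources used here. A further 9 columns could not be tied to a sample and were not used.

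TPM are not counts and keep no depth, so limma 3.58.1 (R 4.3.3) was applied to log2(TPM + 1) in place of the authors' count model, with 1 mean per group, all 9 hearts, eBayes with trend and two-sided tests. Benjamini-Hochberg adjustment covered the 11782 genes that reached 1 TPM in 3 or more hearts. The fit was tested on simulated data. Gene symbols were those of the table, and 34 of the 35 listed members had the same symbol under their identifier in the reference name table. The members, the wider lipid list and the marker lists were chosen with earlier results of these data known. Values in every heart were given for members with an unadjusted p under 0.05 or among the 3 largest differences in either direction in a comparison, and for the 5 highest means, and the 3 smallest p-values per comparison were named from the wider list. Python 3.11.15 with pandas 2.3.3 and matplotlib 3.10.9 made tables and figures. The differences and counts of members were recomputed with a pseudocount of 0.1, without the filter or with a mean of at least 5 TPM, with quantile or median-of-ratios scaling, without mitochondrially encoded genes, on only the 6 hearts compared, with eBayes robust or without trend, with array weights, and without each heart in turn. Members with a mean under 5 TPM have no value under that filter, and ratios, shares and marker sums were not recomputed.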

Additional observations from a re-analysis of the deposited data

How the results depend on the processing

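Over all 30 members and 3 comparisons, 113 of 1698 recomputed differences changed sign, in 50 of the differences, none of which had an unadjusted p under 0.05 as reported. For the members named for their differences and the named genes of the wider list, 13 of 730 changed sign, 4 gained an adjusted p under 0.05 and 713 did neither. NRP + HOPE 24 h against NRP + SCS 2 h gave 1 member with an unadjusted p under 0.05 (4.97% of all genes). It gave 5 under median-of-ratios scaling (8.59% of all genes), 3 under quantile normalization (8.5%), 4 without the mitochondrially encoded genes (8.16%), 2 with only the 6 hearts compared (5.65%), 4 with array weights (15.4%), and 1 to 4 when each heart was left out (3.21% to 10.7%). Hearts without NRP against NRP + SCS 2 h gave 4 (7.22%), and 2 to 5 when each heart was left out (4.12% to 9.43%), and array weights gave 1 member with an adjusted p under 0.05 where the other settings gave 0, and 96 of all genes instead of 6. That member was *PDK4*, at −1.43 with an adjusted p of 0.0245. The 24 h hearts against those without NRP gave 4 (6.01%), and 2 to 7 when each heart was left out (4.12% to 9.49%). *LPIN1* without NRP against SCS reached an adjusted p of 0.0487 with median-of-ratios scaling (−2.00), 0.0494 without mitochondrially encoded genes (−2.17) and 0.00931 with array weights (−2.21). The cause was not tested.

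The sign changes of members named for their differences were as follows. *HADHA*, *HADHB* and *ETFB*, named for their levels, also changed sign in each comparison, except *HADHA* without NRP against SCS. Between the NRP groups, *PLIN5* was 0.16, but −0.15 with array weights and −0.24 to 0.40 when each heart was left out, and *ACSL4* was 0.03, with −0.10 to 0.26. Without NRP against SCS, leaving out hearts gave −0.92 to 0.044 for *PPARA* and −0.92 to 0.0062 for *ACACB*. In the 24 h hearts against those without NRP, it gave −0.18 to 0.79 for *ACADL*, −0.74 to 0.22 for *PPARA*, −0.075 to 0.77 for *ACAA2* and −0.85 to 0.077 for *ACACB*. No paired analysis was possible because the groups share no replicate numbers, each pig having its own. With a heart left out, a group holds 2 hearts and leans on the spread of the others. Depth is unknown, and members under about 10 TPM, such as *PLIN5* and *LIPE*, rest on unknown numbers of reads.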

Other observations

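The partner subunits of the trifunctional protein did not keep a fixed proportion across these hearts, a feature chosen after the values were seen. The ratio of *HADHA* to *HADHB* TPM was 1.94, 2.12 and 1.63 in the No NRP + HOPE 2 h hearts, 1.26, 1.54 and 1.60 in the NRP + SCS 2 h hearts and 1.60, 1.36 and 1.29 in the NRP + HOPE 24 h hearts. In mammals both genes lie side by side and their products form a single complex. The hearts without NRP were above all other 6, with pig 34 (1.63) next to pigs 27 (1.60) and 29 (1.60). A two-sided exact permutation test gave p = 0.1 against either NRP group, the smallest p that 3 hearts against 3 allow, and 1 between the NRP groups. In all, 3 ratios were looked at, and these p-values were not adjusted. A ratio within a heart does not change with a single scaling factor per heart. The ratio of *ETFA* to *ETFB*, the subunits of the electron transfer flavoprotein, was 0.439 to 0.506 without NRP, 0.469 to 0.775 with SCS and 0.52 to 0.652 with 24 h HOPE, with exact permutation p-values of 0.4 and 0.1 for the hearts without NRP against each. The third ratio, of *PDK4* to *PDK2*, overlapped between all groups, at 4.83 to 11.8 without NRP, 8.74 to 10.6 with SCS and 6.52 to 22.8 with 24 h HOPE.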
